A study of Mus musculus with 6 samples.

Results

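Zeb1, Zeb2, Snai1, Snai2, Twist1, Twist2, Tcf3, Tcf4, Prrx1 and Foxc2 encode transcription factors that drive, or assist in, the epithelial-to-mesenchymal transition (EMT), and their mRNA was followed in Met-1 TripZ-200c cells without and with doxycycline (Dox). The 10 genes were chosen by name as known EMT factors and partners, and 9 of them were found among the 43548 genes of the expression table. Foxc2 was not analysed here. The Met-1 line was derived from a late-stage mammary carcinoma of the mouse MMTV-PyMT model, in which the mouse mammary tumor virus promoter drives the polyoma middle T oncogene, in the FVB/NJ strain. The TripZ-200c line carries an inducible lentiviral vector that, once Dox is added, produces the precursor of the microRNA miR-200c together with red fluorescent protein. It is a single clone sorted for cells that were silent without Dox, so both groups carry the vector and share the history of that clone. The line was also sorted, after 1 µg/mL Dox, for intermediate red fluorescence, to obtain intermediate induction of miR-200c. Both groups thus descend from cells treated with Dox earlier. In the control group, 3 cultures received vehicle (water) for 48 h, and in the treated group 3 cultures received 1 µg/mL Dox for 48 h. These times are those of the sample labels, and a legend of the study points to samples with a longer treatment. No cells with an empty vector and Dox were among the 6 libraries, so an effect of Dox itself and an effect of miR-200c cannot be told apart. The cultures of a group were plated in triplicate from the same line, and the spread between them may be technical.

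EMT is the program by which epithelial cells lose their junctions and polarity and become motile, and it is used in embryonic development and again in invasive carcinoma. Its core factors are repressors: the zinc finger proteins ZEB1, ZEB2, SNAI1 (Snail) and SNAI2 (Slug) bind E-box sequences in the promoters of epithelial genes such as the E-cadherin gene Cdh1 and recruit corepressors there. The basic helix-loop-helix (HLH) protein TWIST1 can act as a dimer with a ubiquitous E protein such as TCF3 (E2A) or TCF4 (E2-2). PRRX1 is a homeobox factor of mesenchyme. ZEB1 and ZEB2 stand in a double-negative loop with the miR-200 family: the microRNAs pair with the 3′ untranslated regions (UTRs) of both mRNAs, and both proteins repress the miR-200 genes.

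Expression was given as FPKM, the fragments on a gene scaled to the length of its transcript and to the mapped reads of the library. How well this scale compares different genes was not tested, so an order of genes by FPKM is a description. No library stood apart: the lowest correlation of a library with another of its group was between 0.964 and 0.973 on the log2 scale over the genes tested, and its highest correlation with a library of the other group was between 0.964 and 0.970. Relative depth, estimated from the smallest steps in FPKM, ran from 0.919 to 1.487 of that of the first library without Dox, and the number of reads is unknown. A value of 0 need not mean absence, since all 37 mitochondrial genes listed were also at 0. Of 6 epithelial cell markers, Krt18 made up nearly the whole summed level, which was 91.6 to 97.0 FPKM without Dox and 369 to 406 FPKM with Dox. Cdh1, Epcam and Krt8 were under 0.5 FPKM in every library without Dox and Krt5 was at 0 in all 6, so the line is labelled as a carcinoma but held little RNA of these epithelial genes before Dox. The 5 leukocyte markers summed to 1.04 to 2.65 FPKM, with Cd3e and Adgre1 at 0, and the 4 endothelial markers to 4.19 to 5.12 FPKM, nearly all of it Cdh5.

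Before Dox, the cells held mRNA of 7 of the 9 factors above 1 FPKM. Twist1 was the most abundant at 132 ± 5.10 FPKM (SD, n = 3), followed by Tcf3 at 91.5 ± 1.18 FPKM and Tcf4 at 65.5 ± 2.68 FPKM. Thus Twist1 and the genes of both E proteins among the 9 factors stood at the top of the order. Zeb1 came next at 41.8 ± 0.682 FPKM, then Snai1 at 35.8 ± 2.63 FPKM and Zeb2 at 29.3 ± 1.43 FPKM. Snai2 was far lower at 2.00 ± 0.505 FPKM. Prrx1 was near 0 and Twist2, the paralog of Twist1, was listed at 0 in all 6 libraries. Among the 12879 genes tested, the level of Twist1 without Dox lay at percentile 90.7, that of Tcf3 at 85.5 and that of Tcf4 at 79.2. Zeb1, Snai1 and Zeb2 lay at percentiles 67.6, 63.5 and 57.4, and Snai2 at 7.43. In this order each factor's 3 values lay above all 3 of the next, except that Prrx1 and Twist2 overlapped. The gap was smallest between Zeb1 and Snai1, whose means had a ratio of 1.17, and it was 14.6 between Zeb2 and Snai2.

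With Dox the order changed for 1 pair. Snai1, at 29.4 ± 0.975 FPKM, now lay above Zeb1, at 21.2 ± 2.05 FPKM, and again their values did not overlap. Of the 7 factors tested (those that averaged 1 FPKM or more), 4 fell with Dox (Zeb2, Zeb1, Snai1 and Twist1) at an adjusted p under 0.05 in limma, against 7.97% of all 12879 genes called lower. In limma 0 of the 7 rose, against 7.06% of all genes called higher, and none had an unadjusted p under 0.05 for a rise, either. In 5 of the 7 all values with Dox lay below all values without Dox, which held for 17.6% of the genes tested. The median log2 fold change of the 7 was -0.25, beside 0.00 over all genes tested.

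**Figure D1:**
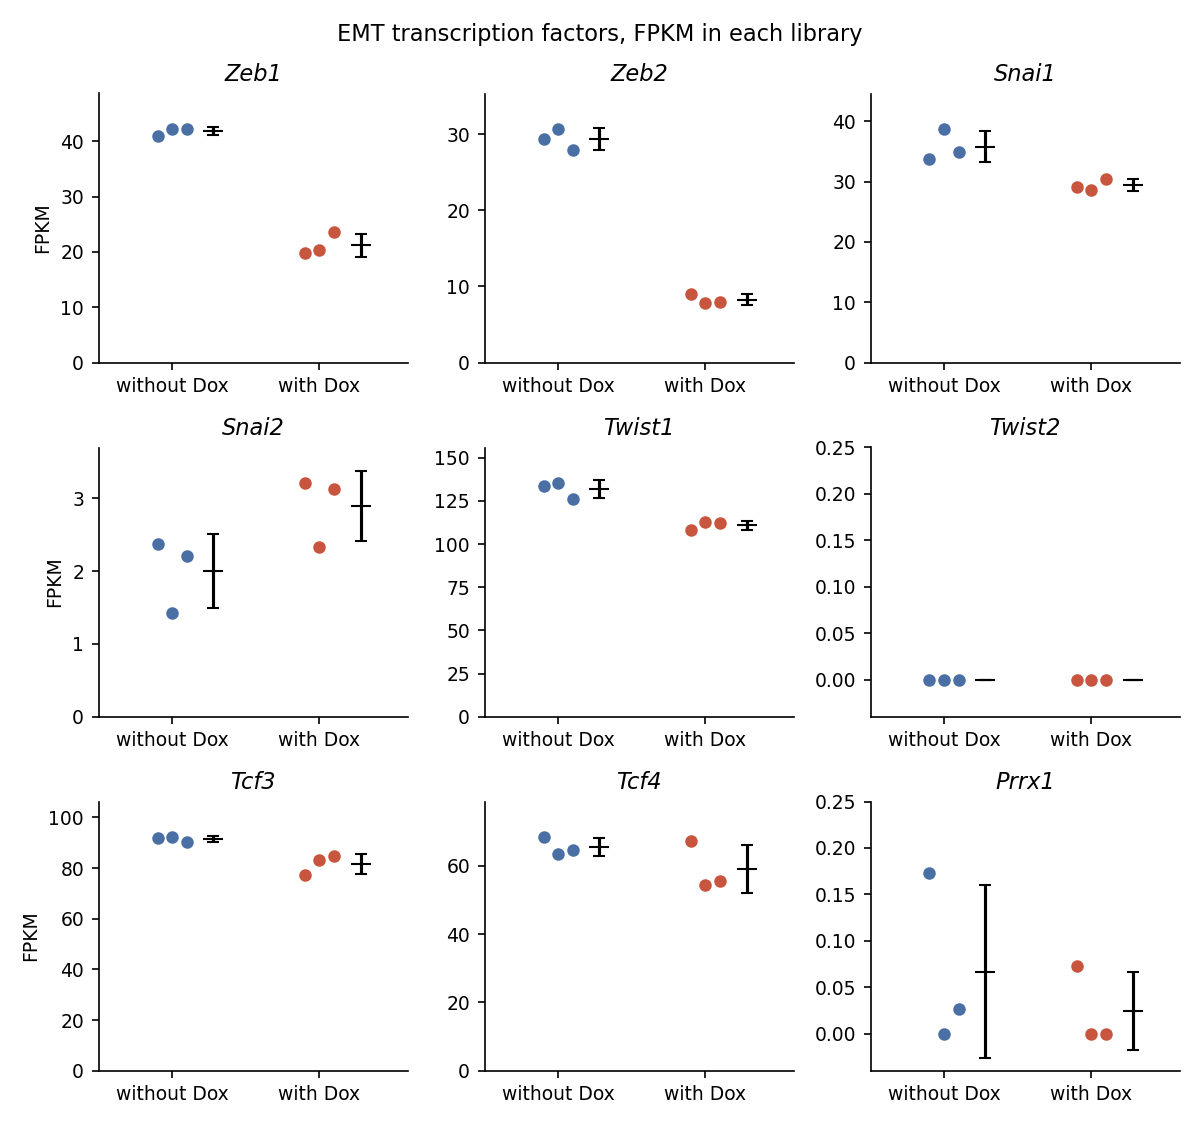
FPKM of the 9 EMT transcription factors in each library without Dox (blue) and with Dox (red), on linear axes that differ between panels, with the mean and SD of 3 libraries in black at the right of each group (where the SD exceeds the mean, its bar runs below 0). The values without and with Dox are far apart for Zeb1 and Zeb2, close but separate for Snai1, Twist1 and Tcf3, and overlapping for Snai2, Tcf4 and Prrx1.

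The ZEB factors showed the largest decreases. Zeb1 (ENSMUSG00000024238; GRCm38 chromosome 18, 5591860 to 5775467, plus strand) encodes the zinc finger and homeodomain repressor ZEB1. It was at 41.0, 42.1 and 42.3 FPKM in control and at 19.8, 20.3 and 23.6 FPKM in treated cultures. The highest treated value thus lay far below the lowest control value. With Dox the level was 0.507 of that without (95% confidence interval 0.449 to 0.572 on the scale of the model), the 146th largest decrease among the 12879 genes on the log2 scale. Zeb2 (ENSMUSG00000026872; chromosome 2, 44983632 to 45117395, minus strand), its paralog, was at 29.4, 30.7 and 27.9 FPKM without Dox. It was at 9.04, 7.82 and 8.0 FPKM with Dox, so the treated cultures lay well below the controls and close to each other. The level fell to 0.283 of that without Dox (95% confidence interval 0.250 to 0.324), the 36th largest decrease. The adjusted p from limma was 3.62e-04 for Zeb1 and 4.48e-05 for Zeb2. In RNA of whole cultures, a decrease in every cell and a larger decrease in some of the cells cannot be told apart.

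Taken as a sum, ZEB mRNA went from 71.1 ± 1.48 FPKM to 29.5 ± 1.82 FPKM (SD, n = 3 each), 41.5% of the control level. Whether both genes fell by the same factor was asked with the ratio of Zeb2 to Zeb1 within each library. The ratio was 0.717, 0.729 and 0.659 without Dox and 0.457, 0.385 and 0.340 with Dox. All 3 treated cultures thus held less Zeb2 per Zeb1 than any control culture, a log2 difference of -0.84. The two-sided exact permutation test gave p = 0.1, the smallest that 3 libraries against 3 allow. The ratio of Zeb1 to Snai1 was 1.21, 1.09 and 1.21 without Dox and 0.680, 0.708 and 0.772 with Dox, with the same p. By FPKM, Zeb1 therefore lay above Snai1 in each control culture and below it in each treated one.

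Genes whose levels followed those of Zeb1 and Zeb2 across the 6 libraries were sought by Pearson's r of log2(FPKM + 0.1), as a description only, since the groups themselves make up most of the variation. Closest to Zeb1 were Eid1, which encodes an inhibitor of differentiation that binds the coactivator p300 (r = 0.9982), Ssc5d (0.9969) and Ostm1 (0.9969). Their levels went from 129 to 108 FPKM for Eid1, from 3.27 to 1.75 FPKM for Ssc5d and from 43.6 to 31.7 FPKM for Ostm1. Closest to Zeb2 were Efnb2, which encodes the membrane ligand ephrin-B2 (r = 0.9992), Gas1 (0.9984) and Gm8086 (0.9983). Efnb2 went from 54.0 to 44.6 FPKM, Gas1 from 24.7 to 16.6 FPKM and Gm8086 from 109 to 64.8 FPKM. The decreases of these 6 genes ranged from -0.27 to -0.87 on the log2 scale and were each smaller than that of the ZEB gene they followed. In all, 44 genes had r over 0.99 with Zeb1 and 83 with Zeb2.

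**Figure D2:**
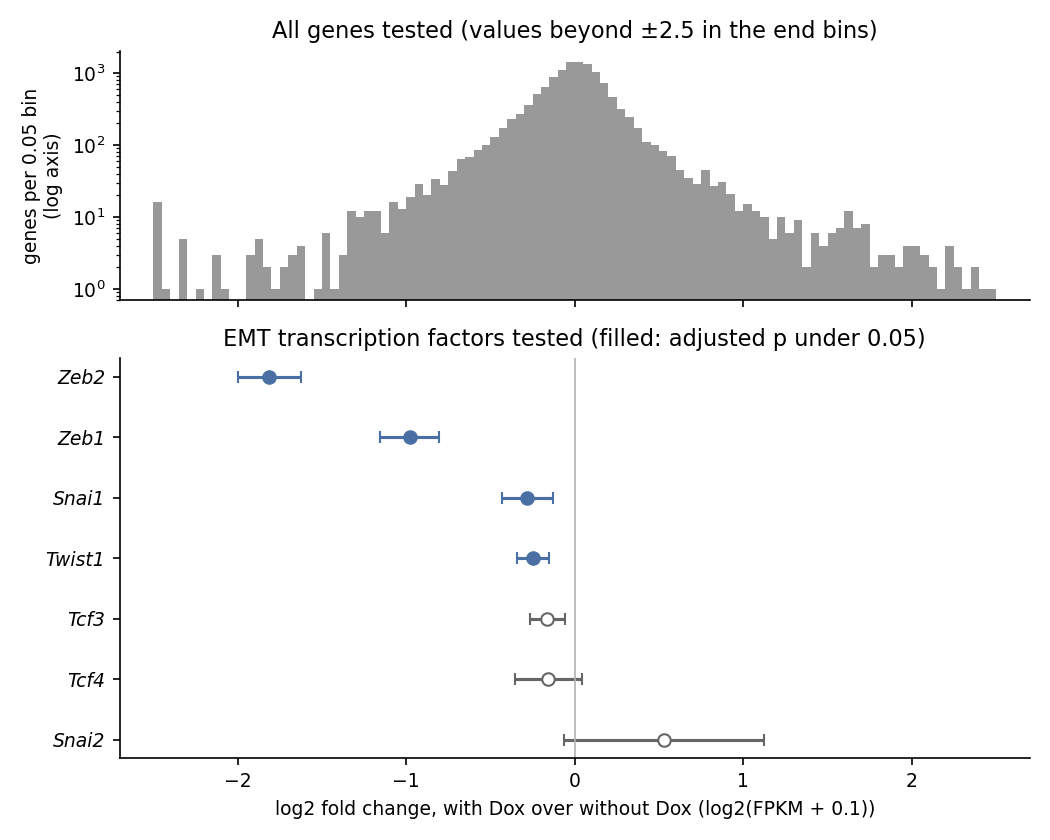
Upper panel: number of genes (log axis) by log2 fold change with Dox over without Dox for all genes tested. Lower panel: log2 fold change and 95% confidence interval from limma for the 7 EMT transcription factors tested, filled where the adjusted p was under 0.05. Zeb2 (-1.81) and Zeb1 (-0.98) lie in the lower tail of all genes, Snai1 and Twist1 lie near -0.3, and the intervals of Tcf4 and Snai2 include 0.

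The sequence that links the induced microRNA with the ZEB mRNAs is its seed, bases 2 to 8 of the mature strand, by which a microRNA finds its targets. RefSeq places miR-200c-3p at GRCm38.p6 chr6:124718324-124718346 on the minus strand, and miR-200b-3p and miR-429-3p, on chromosome 4, carry the same seed. The 3 mature sequences are shown 5′ to 3′ with the seed in capitals, because the genes they can pair with through the seed are the same.
mmu-miR-200c-3p: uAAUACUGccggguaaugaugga
mmu-miR-200b-3p: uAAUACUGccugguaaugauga
mmu-miR-429-3p: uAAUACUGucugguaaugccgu
An mRNA pairs with this seed through the 7 bases CAGTATT, and pairing is stronger where an A follows them (CAGTATTA, 8 bases). The longest annotated 3′ UTR of Zeb2 (ENSMUST00000176438.8, 4941 bases) holds CAGTATT at 5 places, 4 of them followed by an A. They are given below as DNA of the mRNA strand, 15 bases before the match and 1 after it, with the match in capitals. The gene lies on the minus strand of chromosome 2 of GRCm38, and the interval before each sequence is that of the 23 bases shown.
Zeb2 site 1, chr2:44988173-44988195: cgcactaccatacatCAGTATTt
Zeb2 site 2, chr2:44988108-44988130: cgcactacagtgcatCAGTATTa
Zeb2 site 3, chr2:44987746-44987768: ttgaagcacccgtgtCAGTATTa
Zeb2 site 4, chr2:44987661-44987683: gttcattaattttgtCAGTATTa
Zeb2 site 5, chr2:44987527-44987549: tcatactgtagtgtaCAGTATTa
Sites 1 and 2 begin at bases 393 and 458 of the UTR and share most of the bases before the match. Sites 3, 4 and 5 begin at bases 820, 905 and 1039, so all 5 matches lie in the first part of the UTR.

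The longest 3′ UTR of Zeb1, with 2401 bases, also held 5 matches, of which 3 were of the 8-base kind. Among the other factors tested, Snai1 (UTR of 731 bases), Snai2 (1089 bases) and Tcf4 (6007 bases) had 1 match each, none followed by an A. Twist1 (700 bases), Tcf3 (618 bases), Twist2 (1885 bases) and Prrx1 (4891 bases) had 0. Both mRNAs with 5 matches were thus the ones with the largest decreases, and the factors with 1 match included a called decrease (Snai1) and genes that did not pass (Snai2 and Tcf4). So many matches in a UTR were rare over all genes tested, and the shares were not split by UTR length. Of the 10798 genes tested that have an annotated 3′ UTR, 83.9% had 0 matches, 13.1% had 1, 2.45% had 2 and 0.583% had 3 or more. Only 5 genes had 5 or more, and besides Zeb1 and Zeb2 these were D10Wsu102e (9 matches in a UTR annotated over 122583 bases), Gpr161 and Zbtb37. Gpr161 was lower by limma (log2 fold change -0.34, adjusted p = 0.0475), while D10Wsu102e (-0.12, adjusted p = 0.148) and Zbtb37 (-0.22, adjusted p = 0.412) did not pass.

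Across all genes the share called lower in limma was 7.33% with 0 matches, 16.5% with 1, 17.4% with 2 and 33.3% with 3 or more. The median log2 fold change of these classes was 0.01, -0.05, -0.07 and -0.16. Zeb1 and Zeb2 lay below the bulk of their own class, at -0.98 and -1.81. The median UTR length also rose over the classes, from 1009 bases with 0 matches to 5044 bases with 3 or more, and its part in these values was not tested. The miR-200c gene itself cannot serve as a check, since its row, like those of Mir141 and Mir200b, was listed at 0 in all 6 libraries of this mRNA assay.

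**Figure D3:**
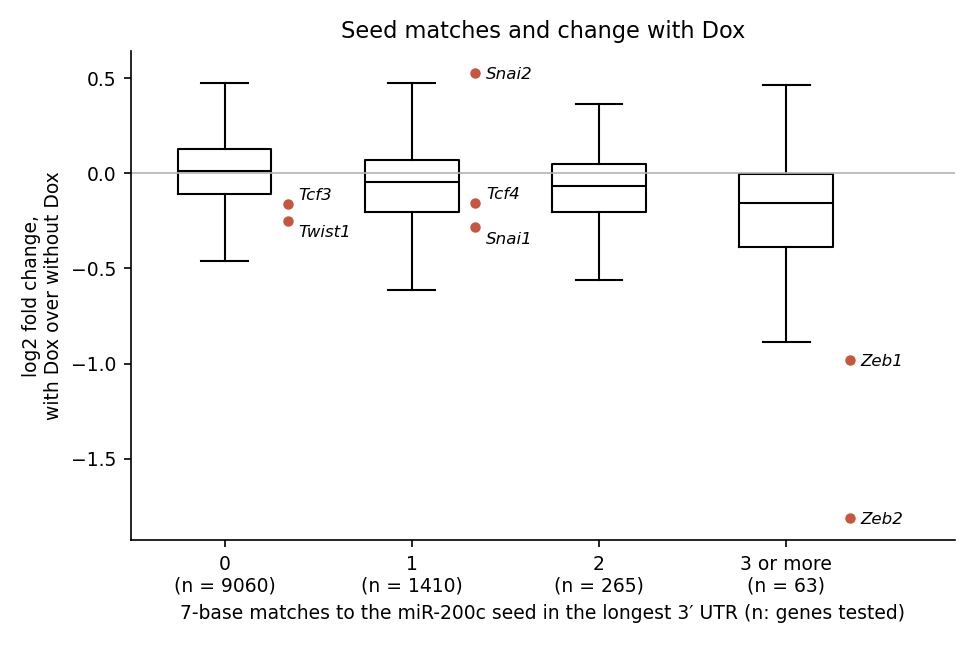
Log2 fold change with Dox over without Dox (vertical axis) by the number of 7-base matches to the miR-200c seed in the longest 3′ UTR (horizontal axis). Boxes give the median and quartiles of all genes tested in each class, whiskers reach to the farthest gene within 1.5 times the box height (genes beyond are not drawn), and red points are the EMT transcription factors. Zeb1 and Zeb2 lie below the whisker of the class with 3 or more matches, and the other factors lie within or near the range of their classes.

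The SNAIL factors gave no such uniform picture. Snai1 (ENSMUSG00000042821; chromosome 2, 167538195 to 167542814) was at 33.8, 38.8 and 34.8 FPKM in control and at 29.1, 28.6 and 30.5 FPKM in treated cultures. The groups were separate but close. With Dox 0.821 of the control level was left, a log2 fold change of -0.28 with a standard error of 0.0651 (limma, adjusted p = 0.0301). This call depended on single libraries: without replicate 2 or 3 of the control group the adjusted p from limma was 0.0681 or 0.0622, and without replicate 1, 2 or 3 of the Dox group it was 0.0857, 0.0953 or 0.0621. The direction was the same each time, with log2 fold changes of -0.32 to -0.22. Snai2 (ENSMUSG00000022676; chromosome 16, 14705852 to 14709385) was at 2.37, 1.43 and 2.21 FPKM in control and at 3.22, 2.34 and 3.13 FPKM in treated cultures. The groups overlapped through the lowest Dox value, and the difference, 0.53 on the log2 scale, had a 95% confidence interval of -0.07 to 1.12 (adjusted p = 0.219 from limma). Snai3, another member of the family and outside the 10 genes, was listed at 0 in all 3 control libraries and at 0.290, 0.265 and 0.304 FPKM with Dox. It was called higher in the model without a filter (adjusted p = 0.00413 from limma), at a level so low that no fold is given.

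SNAI1 is known to bind an E-box in its own promoter. Of the 9 factors, 6 matched a promoter window in the RefSeq table, which runs from 250 bases before to 50 bases after a transcript start in GRCm38.p6. The windows were searched for CACCTG and for CAGGTG, which is the same motif on the other strand and is the E-box bound by SNAIL and ZEB factors. Where a gene had several windows, the one with the most boxes was counted, also in the share over all genes. Snai1 had 1 box, and Zeb2, Twist1, Twist2, Tcf3 and Prrx1 had 0, while 22.6% of the 27025 genes with a window had at least 1. The Snai1 window (plus strand, chr2:167537945-167538244) is shown with the box in capitals. The box begins at base -126, counted from the start as 0.
Snai1 promoter: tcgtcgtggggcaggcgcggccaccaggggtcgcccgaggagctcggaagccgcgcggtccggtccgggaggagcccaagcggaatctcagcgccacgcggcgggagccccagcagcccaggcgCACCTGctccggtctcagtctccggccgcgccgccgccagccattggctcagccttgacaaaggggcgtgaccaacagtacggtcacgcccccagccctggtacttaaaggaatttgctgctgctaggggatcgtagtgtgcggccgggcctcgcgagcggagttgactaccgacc

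Twist1 (ENSMUSG00000035799; chromosome 12, 33957671 to 33959829), the most abundant of the factors, was at 134, 136 and 126 FPKM without Dox. With Dox it was at 108, 112 and 112 FPKM, so all treated values lay below the controls. It fell to 0.842 of the control level (log2 fold change -0.25 with a standard error of 0.0408, limma, adjusted p = 0.00862). The change was small beside those of the ZEB genes but well determined, as the call was made under all 15 alternatives tried, with adjusted p-values from 0.00706 to 0.0358. The mean of Twist1 went from 132 to 111 FPKM, while that of Zeb1 went from 41.8 to 21.2 FPKM. Twist1 remained the most abundant factor after Dox. Twist2 (ENSMUSG00000007805; chromosome 1, 91801461 to 91848028) was listed at 0 in all 6 libraries and gives no comparison.

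The E proteins are dimer partners of TWIST factors. Tcf3 (ENSMUSG00000020167; chromosome 10, 80409514 to 80433647) was at 91.8, 92.4 and 90.1 FPKM in control and at 77.3, 83.3 and 84.7 FPKM in treated cultures. Although the groups did not overlap, the log2 difference of -0.16 (95% confidence interval -0.27 to -0.06) missed the threshold with an adjusted p of 0.0527 from limma. With a minimum mean of 5 FPKM, or with the libraries scaled to the same median, it passed at an adjusted p of 0.0473 each. Tcf4 (ENSMUSG00000053477; chromosome 18, 69343356 to 69689079) was at 68.5, 63.4 and 64.7 FPKM in control and at 67.2, 54.4 and 55.5 FPKM in treated cultures. Replicate 1 with Dox lay within the control range and the other two below it. The log2 difference was -0.16 with a 95% confidence interval of -0.36 to 0.04 (adjusted p = 0.273 from limma). Without replicate 1 of the Dox group it was -0.25 and passed with an adjusted p of 0.0365, so this library decides the call. Tcf12 (HEB), another E protein, was at 96.0, 86.1 and 92.5 FPKM in control and at 96.5, 82.1 and 91.5 FPKM in treated cultures, a log2 difference of -0.03 (adjusted p = 0.846 from limma).

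Prrx1 (ENSMUSG00000026586; chromosome 1, 163245119 to 163313710) was at 0.173, 0 and 0.0270 FPKM in control and at 0.0725, 0 and 0 FPKM in treated cultures. Multiplied by relative depth, the 3 values above 0 stood in a ratio of 4.92 to 1 to 2.03, close to whole steps, so a handful of reads may lie behind each. In the model without a filter the log2 difference was -0.34 with a standard error of 0.445 (limma, adjusted p = 0.715), and a difference was not detectable at this depth. Without replicate 1 of the control group it was 0.090.

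Genes that overlap the factors on the other strand were looked up, since the counting is not stated to use strand. Zeb2os, antisense to Zeb2, was at 1.56, 1.61 and 2.22 FPKM in control and at 1.51, 1.33 and 1.20 FPKM in treated cultures, far below Zeb2 in each library. Gm10125, on the other strand from Zeb1, had means of 0.394 and 0.148 FPKM. No factor shared more than 4.21% of its longest transcript with another gene, the highest share being that of Snai2 with G530012D18Rik.

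Among 15 other transcription factors tied to EMT, 9 were tested and 6 were lower (66.7%, beside 7.97% of all genes), with a median log2 fold change of -0.19. Fosl1, which encodes the AP-1 subunit FRA1, was at 244, 244 and 229 FPKM in control and at 178, 173 and 190 FPKM in treated cultures (log2 fold change -0.41, adjusted p = 0.00183 from limma). It overlaps Ccdc85b on the other strand. Sox4, an SRY-box factor, went from a mean of 74.2 to 57.8 FPKM (-0.36, adjusted p = 0.00194 from limma), and the chromatin protein gene Hmga2 went from 42.8 to 33.8 FPKM (-0.34, adjusted p = 0.00616). Foxc1, Sox9 and Ets1 were also lower, by -0.23, -0.19 and -0.17 on the log2 scale. The size of these decreases lay near that of Snai1 and Twist1, and none came near Zeb1 or Zeb2. Klf8 (0.46) and Runx2 (0.25) missed the threshold, and Gsc and Tbx3 were at 0 in all libraries.

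The ID proteins are HLH factors without a DNA-binding region that sequester E proteins away from partners such as TWIST1. Id1 was at 107, 118 and 114 FPKM in control and at 153, 176 and 162 FPKM in treated cultures, a rise of 0.53 on the log2 scale (adjusted p = 0.00217 from limma). Id3 rose from a mean of 31.5 to 37.6 FPKM (0.25, adjusted p = 0.0118 from limma), while Id2 fell from 123 to 106 FPKM (-0.22, adjusted p = 0.0284). The inhibitors therefore did not move in 1 direction. Without replicate 3 of the Dox group the adjusted p of Id3 was 0.0532, and the call for Id2 was lost without replicate 1 or 2 of the control group or replicate 1 or 3 of the Dox group (adjusted p up to 0.0961). Scx, which encodes the tendon HLH factor scleraxis, rose from 91.1 to 122 FPKM (0.42, adjusted p = 0.00339 from limma). Of the 10 genes of this list, 5 (Id4, Hand1, Hand2, Tcf15 and Msc) were at 0, and of the 5 tested 3 were higher (beside 7.06% of all genes), 1 lower (beside 7.97%) and Tcf12 did not pass, with a median of 0.25.

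Corepressors and chromatin partners are the means by which these factors silence genes. All 21 listed genes were tested, and in limma 2 were higher (9.52%, beside 7.06% of all genes) and 0 were lower (beside 7.97%), with a median log2 fold change of 0.02. At an unadjusted p under 0.05 there were 2 lower, Hdac1 and Mta1, and 5 higher, Ajuba, Sin3a, Rcor1, Mta3 and Suv39h1. Ajuba, a LIM protein that works with SNAI1, was at 138, 142 and 138 FPKM in control and at 184, 190 and 185 FPKM in treated cultures (0.42, adjusted p = 3.94e-04 from limma). Sin3a, a scaffold for histone deacetylases, was higher by 0.26 (adjusted p = 0.0466 from limma), a call made under 5 of 15 alternatives and lost without any replicate but replicate 1 of the Dox group. The ZEB corepressor genes Ctbp1, at means of 182 and 180 FPKM, and Ctbp2, at 87.1 and 89.9 FPKM, did not pass. Nor did Kdm1a, which encodes the demethylase LSD1 (45.0 and 44.5 FPKM), or the Polycomb gene Ezh2 (38.1 and 41.8 FPKM).

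Of 18 genes for proteins that stabilize or degrade these factors, 17 were tested, 2 were lower (11.8%, beside 7.97% of all genes), 3 were higher (17.6%, beside 7.06%) and the median was -0.07. Loxl3, whose lysyl oxidase-like product is known to stabilize SNAI1, went from 23.1 to 15.2 FPKM (log2 fold change -0.60, adjusted p = 7.97e-04 from limma). It overlaps Htra2 on the other strand. Lats2, a Hippo pathway kinase that phosphorylates SNAI1, went from 53.0 to 38.9 FPKM (-0.45, adjusted p = 7.65e-04), but 56.9% of its longest transcript is shared with Gm49361, so reads of these genes cannot be told apart over that stretch. The F-box genes Fbxl14 (0.22, adjusted p = 0.0190 from limma), Fbxl5 (0.33, 0.0348) and Fbxo45 (0.17, 0.0407), whose products take part in the ubiquitination of EMT factors, were higher. Fbxl5 overlaps Bst1 on the other strand. These 3 calls rested on single libraries. Fbxo45 was not called when any 1 of the 6 libraries was left out (adjusted p up to 0.117), and Fbxl14 and Fbxl5 when any but replicate 3 of the control group was (up to 0.0712 and 0.110).

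Among 15 upstream inducers, 1 was lower (6.67%, beside 7.97% of all genes), 2 were higher (13.3%, beside 7.06%) and 12 did not pass, with a median of 0.03. Notch1, which encodes a receptor that can induce Snai1 and Snai2, was at 23.7, 22.8 and 21.2 FPKM in control and at 9.06, 7.60 and 9.11 FPKM in treated cultures. Its change of -1.39 on the log2 scale (limma, adjusted p = 2.16e-04) lay between those of Zeb1 and Zeb2. Of the TGF-β pathway, the receptor gene Tgfbr2 went from 80.6 to 94.3 FPKM (0.23, adjusted p = 0.0119 from limma) and the ligand gene Tgfb3 from 53.4 to 59.5 FPKM (0.15, adjusted p = 0.0420). Without replicate 3 of the Dox group Tgfbr2 came to an adjusted p of 0.0510, and Tgfb3 was lost without any 1 of the 6 libraries (up to 0.129). Tgfb1, Tgfb2, Tgfbr1, Smad2, Smad3 and Smad4 did not pass.

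**Figure D4:**
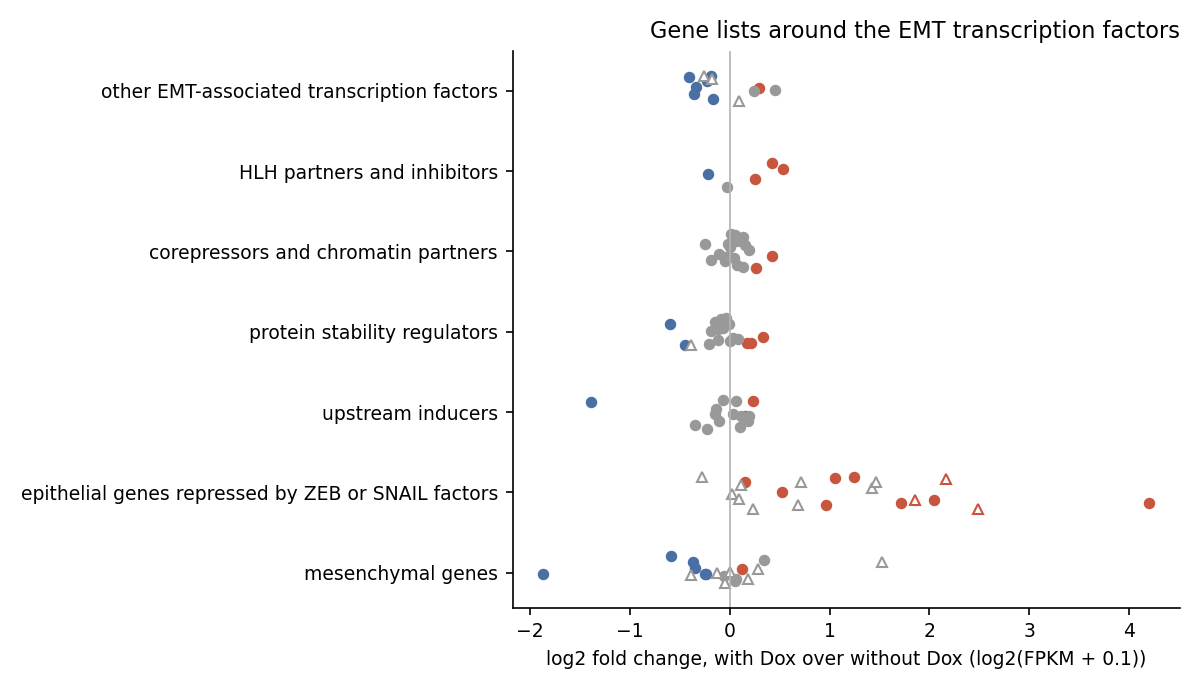
Log2 fold change with Dox over without Dox for each gene of 7 lists around the EMT transcription factors (circles: genes tested; open triangles: genes below the filter, from the model without it). Blue marks an adjusted p under 0.05 with a decrease, red with an increase and grey neither; genes listed at 0 in all libraries without Dox, Crb3 and Snai3 among them, are not drawn. The epithelial genes extend to the right, up to Epcam at 4.20, while the corepressors lie close to 0.

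The epithelial genes that ZEB and SNAIL factors are known to repress were described as the other end of this network. Of 25 such genes, 2 (Krt19 and Ovol2) were at 0 in all libraries, 14 were below the filter and 9 passed it. Epcam and Crb3 passed it only through their levels with Dox, so no count over the 9 is given. In the model without a filter, 11 of the 23 genes above 0 in any library were higher and 0 were lower (0 also at an unadjusted p under 0.05), with a median log2 fold change of 0.96, against 3.81% of all 20513 genes called higher there. Crb3, Marveld2 and Cldn4, which were listed at 0 in all control libraries, are among the 23, and their fitted differences depend on the pseudocount. Cdh1 was at 0.0776, 0.0559 and 0.0419 FPKM in control and at 0.554, 0.692 and 1.24 FPKM in treated cultures. It rose in that model (2.49, adjusted p = 0.0125 from limma), but without replicate 2 or 3 of the control group it did not pass (adjusted p up to 0.0505). The call for Cdh1 was also lost with the replicate number as a block (limma, adjusted p = 0.0721). An unmoderated linear model on log2(FPKM + 1) gave an adjusted p of 0.0983. Epcam, a surface adhesion protein gene, was at 0.0844, 0.137 and 0.161 FPKM in control and at 4.31, 3.88 and 3.98 FPKM in treated cultures (4.20, adjusted p = 9.59e-04 from limma without the filter). The polarity gene Crb3 was listed at 0 in all 3 control libraries and was at 4.31, 2.60 and 2.06 FPKM with Dox. Krt18, which encodes a keratin of simple epithelia, was at 96.4, 91.2 and 92.1 FPKM in control and at 364, 395 and 400 FPKM in treated cultures, a log2 fold change of 2.05. Llgl2, another polarity gene, went from 20.6 to 49.1 FPKM (1.24, adjusted p = 8.42e-05 from limma). Some of the list stayed low: Grhl2, a transcription factor that maintains epithelia and represses Zeb1, was at or below 0.247 FPKM in every library. Cldn4 and Marveld2 were listed at 0 in all control libraries and were above 0, but under 0.25 FPKM, in all treated ones, and neither passed.

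Fewer ZEB transcripts and more of these epithelial transcripts were thus seen in the same 3 cultures. In the RefSeq promoter windows, 14 of the 25 epithelial genes were matched, 13 of them (92.9%) with at least 1 E-box and 8 (57.1%) with 2 or more. Of all 27025 genes with a window, 22.6% had at least 1 and 3.32% had 2 or more. The list was drawn up from genes known as targets of these repressors, so its share is no independent evidence. Counted in the window with the most boxes, Inadl (3 windows) had 3 boxes and Ocln (2 windows) had 2. Cldn4, Cldn7, Rab25 and Muc1 also had 2 boxes each. They were not called in the model without a filter (limma, adjusted p = 0.104, 0.733, 0.692 and 0.983). Cdh1 was not among the 14 genes matched. The windows of Epcam (plus strand, chr17:87635729-87636028) and Crb3 (plus strand, chr17:57061951-57062250) are shown, with the boxes in capitals, because both genes went from values near 0 to several FPKM. The boxes of Epcam begin at bases -187 and -19, counted from the start as 0. Those of Crb3 begin at bases -118, -63, -7 and 25. Crb3 had 2 windows, and the one with the most boxes is shown. It lies within the annotated gene (57059105 to 57065918).
Epcam promoter: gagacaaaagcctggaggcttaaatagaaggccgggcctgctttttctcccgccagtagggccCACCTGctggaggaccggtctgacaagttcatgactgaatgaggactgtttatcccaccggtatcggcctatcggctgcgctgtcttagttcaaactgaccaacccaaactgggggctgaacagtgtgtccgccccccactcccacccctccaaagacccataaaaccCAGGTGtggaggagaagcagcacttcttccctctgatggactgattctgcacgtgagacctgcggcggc
Crb3 promoter: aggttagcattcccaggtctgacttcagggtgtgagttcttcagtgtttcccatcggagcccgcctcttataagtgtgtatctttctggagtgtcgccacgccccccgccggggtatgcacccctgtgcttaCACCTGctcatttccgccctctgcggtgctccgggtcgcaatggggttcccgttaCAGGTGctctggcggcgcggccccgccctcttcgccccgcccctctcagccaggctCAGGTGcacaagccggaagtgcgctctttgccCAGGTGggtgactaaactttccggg
A box in these letters is a description of the sequence, and binding was not measured in these libraries.

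Of 19 mesenchymal genes, 11 were tested, 6 were lower (54.5%, beside 7.97% of all genes), 1 was higher (9.09%, beside 7.06%) and 4 did not pass, with a median log2 fold change of -0.24. Mmp3, a matrix metalloproteinase gene, was at 178, 153 and 169 FPKM in control and at 48.4, 47.3 and 40.8 FPKM in treated cultures, a decrease of -1.87 close to that of Zeb2 (15.7% of its transcript is shared with Gm15242). S100a4 was lower by -0.59 and Vim, which encodes the filament protein vimentin, by -0.35, but 60.6% of the S100a4 transcript is shared with Gm42674, and Vim missed the threshold after quantile normalization (limma, adjusted p = 0.0514). Axl, which encodes a receptor tyrosine kinase, was higher by 0.12 (adjusted p = 0.0342 from limma), a call lost under 9 of 15 alternatives (adjusted p up to 0.134), including the removal of any library but replicate 1 of the Dox group. Cdh2, the N-cadherin gene that often replaces E-cadherin in EMT, was at 103, 105 and 105 FPKM in control and at 96.6, 101 and 103 FPKM in treated cultures and did not pass. Acta2 was at 0 in all libraries.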

How the data were processed

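Single reads were sequenced from 6 mRNA libraries made with a stranded kit, 3 per group. The authors aligned the reads with gSNAP and estimated expression with Cufflinks on the mouse genome, GRCm38.p6 in the submitters' processing notes. Tool versions and the use of strand are not given in the sources used here. The authors deposited a table of FPKM per gene and library. It also holds group means of FPKM and, from the authors' own comparison, a fold score, p-values and a score for the false discovery rate (q-values), none of which were used. Groups and replicate numbers came from the sample titles. Of 43611 rows, 63 were repeated identifiers, dropped in favour of the row of higher mean, and 6 placeholder values in 4 genes were treated as missing.

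The 12879 genes that averaged 1 FPKM or more were fitted as log2(FPKM + 0.1) in limma 3.58.1 under R 4.3.3 (lmFit, eBayes with a trend, group as the only term). The threshold was a Benjamini-Hochberg adjusted p of 0.05. The study's methods name an ANOVA per gene, which is among the alternatives. Genes below the filter came from the same model over 20513 genes, and fold changes on this scale understate the change of low genes. The model was tested on simulated data with 200 of 12751 genes changed by 1 log2 unit, of which 80% were called, while 5.33% of the calls were unchanged genes. P-values measure the spread between these cultures only. Members and gene lists were chosen with earlier results of these data known. All factors were named, as were up to 3 genes per list and direction with the lowest adjusted p and any gene needed to describe a list, except that some items are not reported here. For Zeb1 and Zeb2 the 3 genes with the highest Pearson r were named. Overlaps, UTRs and positions are from GENCODE M21, microRNAs and promoters from RefSeq, and shared sequence from BLAST 2.17.0 (matches of 50 bases or more with 95% identity). Alternatives were a pseudocount of 1 or 0.01, no filter or a minimum of 5 FPKM, scaling of the libraries to 1 median, quantile normalization, limma with no trend, an unmoderated linear model per gene on log2(FPKM + 1), the replicate number as a block, and fits that each left out 1 library.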

Additional observations from a re-analysis of the deposited data

How the results depend on the processing

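Zeb1, Zeb2 and Twist1 kept their decrease and passed under all 15 alternatives, with adjusted p-values from limma or, in that alternative, the unmoderated model of up to 0.0111, 0.00383 and 0.0358. Snai1 kept its direction and passed under 7 of 15 (adjusted p 0.0253 to 0.0953), being lost also without the trend (0.0542), in the unmoderated model (0.0846) and with the replicate block (0.0681). Between 3 and 5 of the factors tested were called lower, and 0 higher. With single libraries left out, Prrx1 ranged from -0.63 to 0.090 on the log2 scale, being above 0 without replicate 1 of the control group. Tcf12 ranged from -0.077 to 0.039, being above 0 without that library or replicate 2 of the Dox group. The replicate block gave 704 genes lower and 633 higher, against 1026 and 909 without it, and in the 7 gene lists 13 higher against 21. Deviations of libraries with the same number correlated by 0.0287, 0.0359 and -0.00759, and 2 of 3 libraries correlated best with their own number. The mean correlation was 0.0190 for the same number and -0.00951 for different numbers. With 3 libraries per group these values cannot decide whether libraries of the same number were handled together. The unmoderated model on log2(FPKM + 1) called 598 genes higher. With each library left out in turn, 590 to 709 genes were lower and 479 to 688 higher, and in the lists 9 to 15 genes were higher and 11 to 14 lower, beside 16 lower with all 6 libraries. Fewer libraries, and for the block fewer degrees of freedom, stand behind these counts. With all 6 libraries the list genes called higher include Epcam and Crb3, which passed the filter only through their levels with Dox. The counts of higher list genes therefore serve only to compare settings. The ratio of Zeb2 to Zeb1 stayed between -0.95 and -0.74 on the log2 scale. Scaling moved the median of all genes by less than 0.1. FPKM hide the depth, which limits values under 1 FPKM such as those of Prrx1 and Snai3.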
